A study of Mus musculus with 2 samples.

Results

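The neutrophil gate held 62 of 18460 cell barcodes in single-cell RNA-seq of mouse tumours (2 droplet libraries). The members were chosen by their UMIs of 9 genes. A barcode entered the gate when it held at least 10 unique molecular identifiers (UMIs, each standing for 1 captured RNA molecule) of S100a8 and S100a9 together, at least 2 of Csf3r, Cxcr2, Retnlg and Hdc together, and 0 of the T cell genes Cd3d, Cd3e and Trac. UMIs of the complement genes C1qa, C1qb and C1qc were counted in each of these barcodes as a measure of macrophage RNA. Of the 62 barcodes, 36 held at most 5 C1q UMIs. These 36, 20 from the control library and 16 from the sitagliptin library, are described first throughout and are called the C1q-low barcodes of the gate.

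The control library came from mice on a control diet. Mice of the other library ate food with sitagliptin, a drug that blocks the peptidase DPP4 (CD26). Both diets were given to WT mice with MC38-OVA tumours, grown from a colon carcinoma line made to express the model antigen ovalbumin. Tumour cells in suspension were enriched for CD45+ leukocytes with magnetic beads (MACS) and sequenced from their 5' ends (SeekOne DD kit). The sources used here do not give mouse strain, age, sex, tumour stage, drug dose or the number of mice per library. There was 1 library per diet, so the diets have no replicate check and no test was made. Every interval is a 95% interval that covers counting error only, and a ratio is always sitagliptin over control.

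Neutrophils are short-lived granulocytes made in the bone marrow, where they fill their granules with antimicrobial proteins before release. S100A8 and S100A9 form calprotectin, a calcium-binding complex that is abundant in neutrophils and is also made by monocytes. Mature neutrophils respond to G-CSF through CSF3R, follow CXCL chemokines through CXCR2, and in tumours can make IL-1β, chemokines and immune-suppressive enzymes. They hold little RNA per cell. Every barcode in both matrices held more than 2000 UMIs, and barcodes with fewer are not analysed here.

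Stretches of promoter are shown for the rule genes S100a8 and S100a9, and for Il1b and Cxcl2, the cytokine and the chemokine with the most UMIs in the C1q-low barcodes. Each is the 200 bases before the annotated start in RefSeq (GRCm38.p6), read on the gene's strand from 5′ to 3′. All 4 genes had an entry. Capitals mark matches, on either strand, to TATAAA, to the C/EBP-like letters TTGNNNAA or to the κB-like letters GGGNNNNNCC.
S100a8, chr3:90668871-90669070, plus strand: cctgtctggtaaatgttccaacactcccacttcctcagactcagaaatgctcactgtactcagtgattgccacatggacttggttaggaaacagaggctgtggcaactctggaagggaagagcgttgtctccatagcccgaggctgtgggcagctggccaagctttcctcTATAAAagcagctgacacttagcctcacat
S100a9, chr3:90695722-90695921, minus strand: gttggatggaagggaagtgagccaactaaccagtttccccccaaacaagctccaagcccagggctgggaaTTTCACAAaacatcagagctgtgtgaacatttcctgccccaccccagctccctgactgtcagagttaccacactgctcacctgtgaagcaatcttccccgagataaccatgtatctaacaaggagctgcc
Il1b, chr2:129371140-129371339, minus strand: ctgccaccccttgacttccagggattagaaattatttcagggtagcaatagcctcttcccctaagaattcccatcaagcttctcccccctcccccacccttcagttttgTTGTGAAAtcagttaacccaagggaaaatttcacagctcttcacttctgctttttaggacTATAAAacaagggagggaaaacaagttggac
Cxcl2, chr5:90903699-90903898, plus strand: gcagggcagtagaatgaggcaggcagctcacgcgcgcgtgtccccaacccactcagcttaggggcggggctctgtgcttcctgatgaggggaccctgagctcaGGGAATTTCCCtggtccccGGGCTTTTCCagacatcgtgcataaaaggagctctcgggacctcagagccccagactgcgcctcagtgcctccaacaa

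The S100a8 stretch held TATAAA from 30 to 25 bases before the start, and the S100a9 stretch held 1 C/EBP-like match from 130 to 123 bases before it. Il1b had 1 C/EBP-like match from 91 to 84 bases before the start and TATAAA from 31 to 26. Cxcl2 had 3 κB-like matches, an overlapping pair between 97 and 87 bases before the start and 1 from 78 to 69. Among 32851 promoters of the same length, 41.4% held the κB-like letters, 27.1% the C/EBP-like letters and 9.96% TATAAA. A match is a run of letters and not a measured binding site.

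Both libraries held few such barcodes. The gate took 36 of 8694 control barcodes (0.414%, 95% interval 0.290 to 0.573, Clopper-Pearson) and 26 of 9766 sitagliptin barcodes (0.266%, 0.174 to 0.390). The ratio of these shares was 0.643 (Katz interval 0.389 to 1.06), an interval that includes 1. With at most 5 C1q UMIs the shares were 0.230% and 0.164%, with a ratio of 0.712 (0.369 to 1.37). Over barcodes with a Ptprc UMI (Ptprc encodes CD45), 36 of 6734 and 26 of 8394, the ratio was 0.579 (0.350 to 0.959). After each barcode was thinned to 2000 UMIs the gate took 14 in each library, a ratio of 0.890 (0.425 to 1.87). Of 132 barcode sequences that occurred in both libraries, 0 belonged to the gate.

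The edges of the gate were populated on both sides. In the gate, 6 control and 3 sitagliptin barcodes had an S100 sum of 10 to 14 UMIs, and 12 and 6 barcodes met the other criteria with a sum of 5 to 9. The second sum was 2 or 3 in 10 and 7 members. It was 1 in 3 and 2 barcodes that met the other criteria, and 0 in 9 and 4. T cell UMIs kept out 4 and 5 barcodes. The level of Il1b, which the rule did not use, was 7081 CPM (UMIs scaled to a total of 1000000) in control members with an S100 sum of 10 to 14 and 8288 CPM just outside the limit. In the sitagliptin library it was 12659 and 4302 CPM. The sitagliptin sets also differed in C1q, at 288 CPM inside and 3376 CPM outside the limit, and the control sets were at 2955 and 4007 CPM. The part of C1q in the Il1b values was not tested.

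S100a8 and S100a9 chose the barcodes, so their levels are a description. In control C1q-low barcodes the S100 sum ran from 10 to 530 UMIs with a median of 27.5. In the sitagliptin barcodes it ran from 10 to 147 with a median of 32, within the control range. S100a8, the smaller calprotectin subunit, stood at 8448 CPM in control and 8138 CPM in sitagliptin barcodes. S100a9, its partner, stood at 3848 and 3034 CPM. Outside the gate S100a8 was at 21.3 and 16.3 CPM and S100a9 at 5.10 and 2.44 CPM. Of T cell barcodes, which should lack the gene, 3.45% and 1.96% had an S100a8 UMI, at a median depth of 3814 and 3714.5 UMIs.

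Of the 4 other rule genes only Hdc was found in nearly all barcodes. Csf3r, the G-CSF receptor, gave 12 UMIs in 8 of 20 control barcodes and 12 UMIs in 8 of 16 sitagliptin barcodes. Cxcr2, the receptor for CXCL1 and CXCL2, gave 10 UMIs in 7 and 4 UMIs in 4. Among T cell barcodes 1.72% and 1.96% had a Csf3r UMI and 0% had a Cxcr2 UMI in either library. Hdc, the histamine-forming enzyme, gave 106 UMIs in 19 of 20 control barcodes (0 to 18 a barcode, median 3.5) and 79 UMIs in 16 of 16 sitagliptin barcodes (2 to 11, median 4.5). Hdc was the single gene of the second sum in 9 control and 4 sitagliptin barcodes. Retnlg, a resistin-like secreted protein of neutrophils, gave 136 UMIs in 6 control barcodes and 5 UMIs in 3 sitagliptin barcodes.

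One control barcode stood apart. It held 3151 UMIs, of which 393 were S100a8 and 137 were S100a9 (16.8% of its RNA), with 86 Retnlg UMIs, 10 of the granule gene Lcn2, 4 of the granule gene Ngp and 1 each of Mmp8 and C1qa. It also held the only Ly6g UMI of the C1q-low barcodes. Ly6g encodes the surface antigen most used to sort mouse neutrophils. This barcode gave 46.0% of the control S100a8 UMIs and 63.2% of the control Retnlg UMIs. The sitagliptin barcode with the highest S100 sum held 2071 UMIs, with 103 of S100a8, 44 of S100a9, 11 of Hdc, 3 of Retnlg, 3 of Lcn2 and 0 of Ly6g. Without the barcode of highest S100 sum in each library, the S100a8 ratio went from 0.963 to 1.44 and the Retnlg ratio from 0.057 to 0.062.

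**Figure D1:**
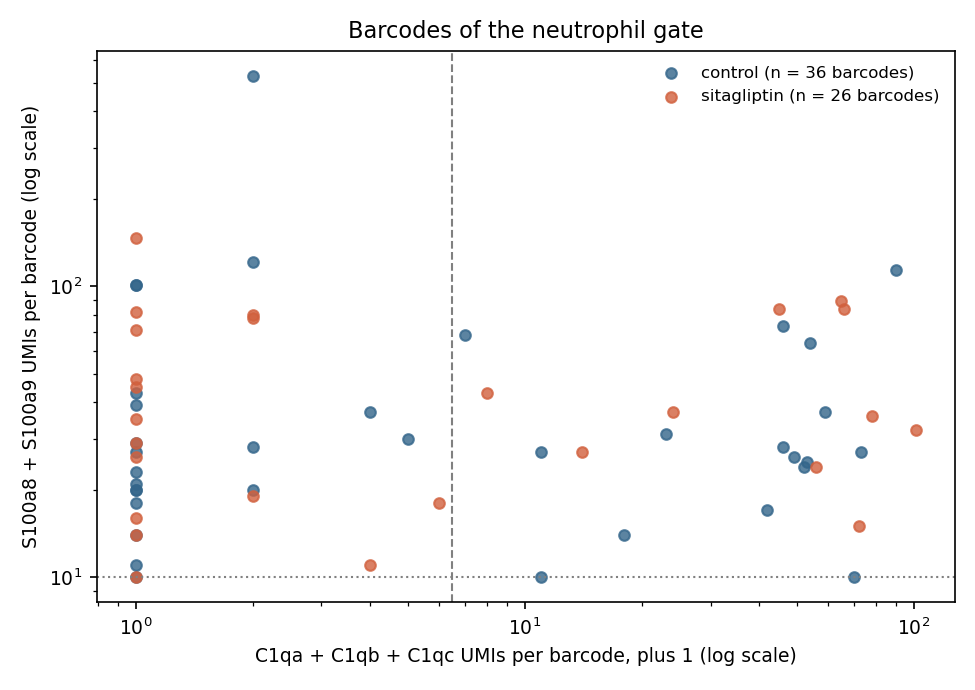
S100a8 plus S100a9 UMIs (vertical, log scale) against C1q UMIs plus 1 (horizontal, log scale) in each of the 36 control and 26 sitagliptin barcodes of the gate. The dashed line separates barcodes with at most 5 C1q UMIs, the dotted line marks the S100 limit of 10, and the control barcode with 530 S100 UMIs lies alone at the top.

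Genes the rule did not use were set beside the name neutrophil. G0s2, an inhibitor of fat breakdown, is abundant in neutrophil RNA. It was at 584 and 475 CPM in C1q-low barcodes of the control and sitagliptin libraries, against 2.50 and 1.11 CPM outside the gate. G0s2 was found in 11 of 20 and 10 of 16 of these barcodes. It is among the genes chosen below for their excess over other barcodes, so this gap is a description. Of 24 further neutrophil genes, described below, 15 reached 20 UMIs over both libraries, while Cxcr1, Ly6g, Mmp8 and Cd177 were nearly absent. Of 8 monocyte markers, however, all 8 were detected in both libraries, with a summed level of 2770 and 2146 CPM. That level was 1368 and 1778 CPM in barcodes outside the gate that held at least 2 UMIs of Ly6c2, Plac8, Vcan and Ccr2, no T cell UMI and at most 5 C1q UMIs (the monocyte-gene barcodes, a loose set and not a cell type). The same sum was 1516 and 1546 CPM in T cell barcodes and 1450 and 1712 CPM over all barcodes outside the gate. It thus separated these sets little. In single C1q-low barcodes the monocyte markers gave 0 to 38 UMIs (median 12.5) in control and 0 to 27 (median 4.5) in sitagliptin. The part of monocyte RNA, and of monocytes that express calprotectin, was not tested, so the barcodes are called by their gate.

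Markers of other cell types ranged from 0 to more than in the monocyte-gene barcodes. Those of B and plasma cells (7 genes), of eosinophils (8) and of red cells and platelets (8) were all at 0, and of 11 mast cell and basophil markers only Kit gave a UMI. Mast cells and basophils also express Hdc. T cell markers were at 19.8 and 15.3 CPM, but the gate itself set 3 of the 10 (Cd3d, Cd3e and Trac) to 0. NK cell markers were at 98.9 CPM in control (10 UMIs in 1 barcode) and 61.3 CPM in sitagliptin (4 UMIs in 2 barcodes). Dendritic cell markers were at 59.4 and 0 CPM, all from 1 control barcode. Stroma markers were found in 4 and 6 barcodes, at 59.4 and 107 CPM against 155 and 134 CPM outside the gate. Tumour epithelial markers gave 2 UMIs in each library. Macrophage markers were at 1523 and 1854 CPM, with 12 and 14 of 15 detected, above the 764 and 1008 CPM of the monocyte-gene barcodes. C1q-positive barcodes outside the gate (3896 control and 4549 sitagliptin) held at least 6 C1q UMIs and fewer than 10 UMIs of S100a8 and S100a9. In these the macrophage markers were at 11904 and 11052 CPM.

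The C1q-low barcodes were also divided by their receptor UMIs. With at least 1 Csf3r or Cxcr2 UMI there were 10 control and 11 sitagliptin barcodes, and without one there were 10 and 5. The barcodes with a receptor UMI had fewer UMIs in all, with medians of 2998 and 2583 against 5580.5 and 5449. G0s2 was at 1048 and 687 CPM with a receptor UMI and at 313 and 182 CPM without. Acod1, which makes the immunometabolite itaconate, was at 2606 and 2617 CPM against 673 and 1167 CPM. The fibronectin gene Fn1, expressed by monocytes and macrophages, was at 430 and 714 CPM with and 1910 and 1823 CPM without. Cd74, the MHC class II invariant chain, was at 3439 and 4758 CPM against 8125 and 9372 CPM. These 4 genes were named after their values were seen, and other genes changed order between the libraries. Il1b was at 15208 CPM with and 7624 CPM without a receptor UMI in control, but at 8803 and 12071 CPM in sitagliptin. Apoe was at 107 and 344 CPM in control and at 1004 and 146 CPM in sitagliptin. The summed macrophage markers were at 1075 and 1785 CPM in control and at 2353 and 1167 CPM in sitagliptin. The shares of all barcodes with a receptor UMI, 0.115% and 0.113%, gave a ratio of 0.979 (0.416 to 2.30).

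Cd74 varied widely among single barcodes. The C1q-low barcodes held 0 to 236 Cd74 UMIs in control (median 7.5) and 0 to 109 in sitagliptin (median 11). More than 20 were found in 5 control and 7 sitagliptin barcodes. In these, Fn1 was at 1664 and 1634 CPM and G0s2 at 388 and 226 CPM. In the other 15 and 9 barcodes Fn1 was at 1199 and 471 CPM and G0s2 at 692 and 864 CPM. A Csf3r or Cxcr2 UMI was present in 2 of 5 and 2 of 7 barcodes with more than 20 Cd74 UMIs, and in 8 of 15 and 9 of 9 with fewer.

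C1q UMIs fell at the ends of their range. Of the gate's control barcodes 14 had none, 6 had 1 to 5, 4 had 6 to 20 and 12 had more than 20. In the sitagliptin library these numbers were 11, 5, 2 and 8. Barcodes with more than 20 C1q UMIs were larger, with a median of 8327 and 8789.5 UMIs against 4588 and 4710 in barcodes with none. Il1b was at 10053 and 10485 CPM in barcodes with no C1q UMI and at 4488 and 4168 CPM in those with more than 20. Srgn, a granule proteoglycan, stood at 3521 and 4202 CPM against 2371 and 1989 CPM, and Hdc at 942 and 1091 CPM against 367 and 426 CPM. The macrophage lipid carrier Apoe went the other way, with 118 and 667 CPM against 2371 and 2463 CPM, as did Lyz2 (lysozyme), with 1414 and 2323 CPM against 5354 and 4262 CPM. In the gate's barcodes with more than 5 C1q UMIs the summed macrophage markers stood at 11907 and 10830 CPM, close to the C1q-positive barcodes. Both of these sets were chosen for their C1q UMIs.

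By a fixed rule, 15 genes were taken with the highest ratio over all barcodes outside the gate in the library where that ratio was lower. Only genes whose C1q-low sum reached 50 UMIs could enter. The 6 rule genes, which the gate raises, were left out, and so were mitochondrial, ribosomal protein and unnamed-model genes. The genes were Cstdc4, G0s2, Il1f9, Slfn4, Acod1, Ccl4, Il1r2, Ccl3, Clec4e, Cxcl3, Csf1, Clec4d, Mxd1, Slc7a11 and Il1b. Cstdc4, a cystatin-type protease inhibitor of the stefin A cluster, was at 307 and 644 CPM against 1.31 and 1.58 CPM outside. It belongs to a family of near-identical copies, so its reads may be split or shared. A single barcode gave 51.6% of its control UMIs. Il1f9, which encodes IL-36γ, was at 168 and 506 CPM against 1.72 and 1.12 CPM. Slfn4, a Schlafen gene induced by interferon with close paralogs, was at 425 and 552 CPM against 21.2 and 22.5 CPM.

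The other genes of this group included receptors and transporters. Il1r2, the decoy receptor that binds IL-1, was at 505 and 904 CPM in the C1q-low barcodes, 96 and 90 CPM in C1q-positive barcodes and 53 and 66 CPM in monocyte-gene barcodes. Clec4e (Mincle), a receptor for microbial glycolipids, was at 969 and 1027 CPM against 157 and 163 CPM in C1q-positive barcodes. Csf1, the macrophage growth factor, was at 534 and 460 CPM against 50.4 and 46.6 CPM. Its level was higher in monocyte-gene barcodes, at 120 and 88.8 CPM, and in T cell barcodes, at 139 and 157 CPM. Slc7a11, the cystine importer, was at 683 and 1134 CPM against 145 and 141 CPM. Mxd1, a MAX-binding repressor, was at 554 and 935 CPM against 114 and 147 CPM, and at 199 and 310 CPM in T cell barcodes. In T cell barcodes 2.59% and 0.559% had an Il1f9 UMI and 2.16% and 0% had a Cstdc4 UMI.

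**Figure D2:**
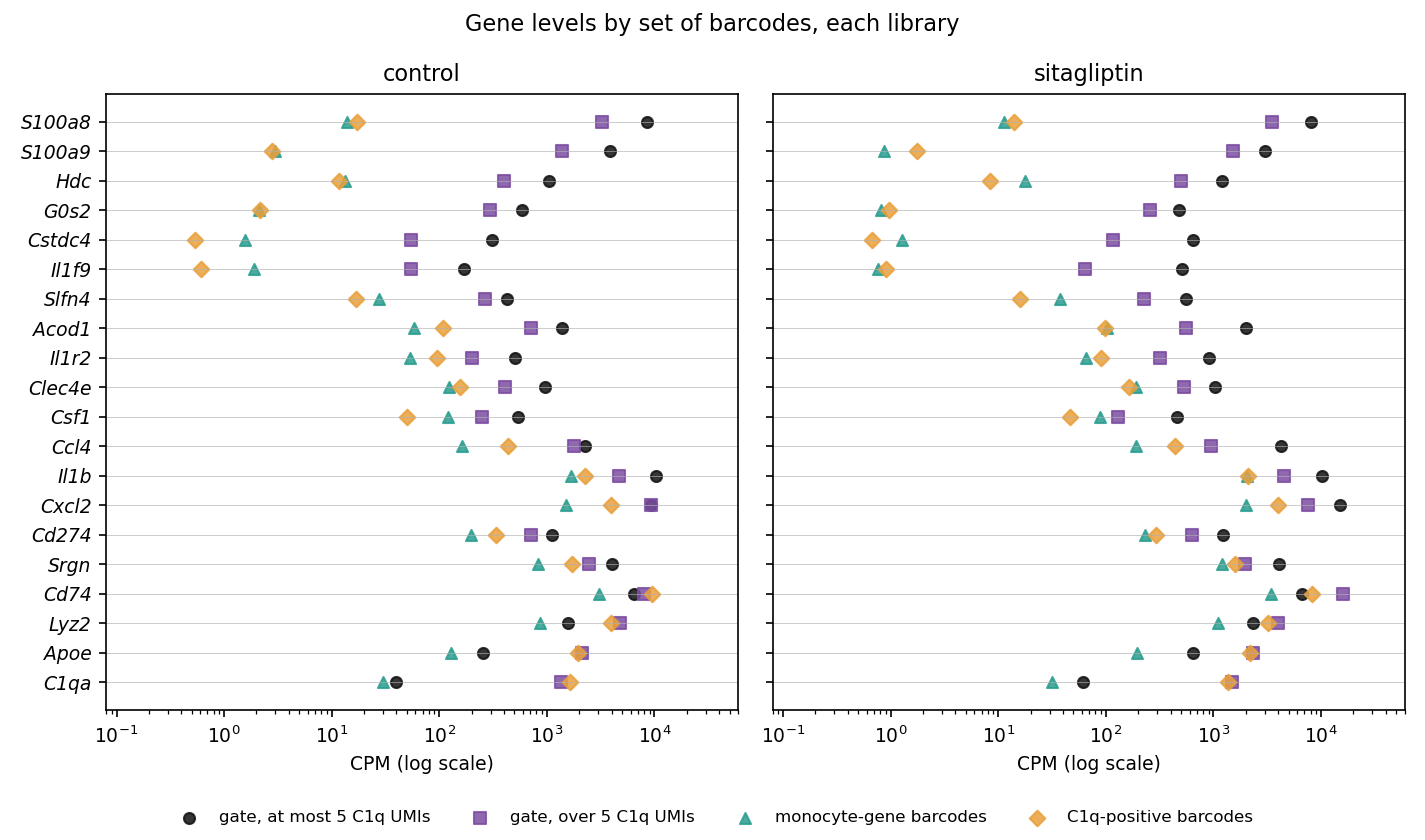
CPM (log scale) of 20 genes in the control (left) and sitagliptin (right) library, in C1q-low barcodes of the gate (circles), barcodes of the gate with more than 5 C1q UMIs (squares), monocyte-gene barcodes (triangles) and C1q-positive barcodes outside the gate (diamonds). For G0s2 the C1q-low barcodes stand at 584 and 475 CPM and both outside sets near 1 to 2 CPM, while for Apoe and C1qa the squares lie with the diamonds.

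For each list of genes below, a gene counted as measured with at least 20 UMIs over both libraries in C1q-low barcodes, and as past the fold at 1.5 or more in either direction. Over all 1383 genes measured in this way, 15.3% were at least 1.5-fold higher in sitagliptin, 18.9% at least 1.5-fold lower and 34.1% past 1.5-fold in either direction, with a median log2 ratio of -0.05. Over all barcodes of the gate 29.5% of 3016 genes were past 1.5-fold, with a median of -0.10. A list's counts stand beside these shares and nothing particular to a list is read from them. With so few barcodes, 1 barcode often gave much of a gene's UMIs. Because a measured gene had to be found in the C1q-low barcodes, the lists are not counted against other barcodes.

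Of 24 further neutrophil genes in the files, 15 were measured. Between the diets 2 were past 1.5-fold higher (Il1r2, Mxd1) and 4 past 1.5-fold lower (Asprv1, Hp, Ifitm1 and Pglyrp1). The median log2 ratio was -0.02. The Mxd1 ratio was 1.69 in C1q-low barcodes and 1.06 in the gate's barcodes with more than 5 C1q UMIs. Outside the gate the Mxd1 ratio was 1.82 in monocyte-gene, 1.56 in T cell and 1.29 in C1q-positive barcodes. The Mxd1 rise was thus not limited to the gate. Srgn, with the most UMIs, was at 3996 and 4077 CPM in 20 of 20 and 16 of 16 barcodes. S100a11 was at 1563 and 1379 CPM. Pglyrp1, a peptidoglycan-binding granule protein, was at 317 and 76.6 CPM, and 59.4% of its control UMIs came from 1 barcode. Hp, haptoglobin, gave 23 UMIs in 5 control and 4 UMIs in 4 sitagliptin barcodes. Cxcr1 was at 0, which allows up to 3 UMIs in each library's sum, Mmp8 and Ly6g gave 1 UMI each in control and 0 in sitagliptin, and Cd177 gave 3 and 0.

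Several granule genes of immature neutrophils were near 0. Of 8 azurophil granule genes, made at the promyelocyte stage, Mpo, Elane, Prtn3, Ctsg, Ms4a3, Bpi and Serpinb1a were at 0 UMIs in both libraries. Ctsc, a protease activator also made by macrophages, was at 940 and 812 CPM, below its 2095 and 1859 CPM in C1q-positive barcodes. Of 17 genes of specific and gelatinase granules, Camp, Olfm4 and Itgb2l were at 0, Ngp gave 4 and 0 UMIs and Ltf 2 and 0. Lcn2 gave 12 UMIs in 3 control barcodes, 83.3% of them from the barcode described above, and 8 UMIs in 5 sitagliptin barcodes. The 17 genes together were at 4976 and 5640 CPM, with a UMI in 20 control and 15 sitagliptin barcodes. Of the 7 measured, 0 were past 1.5-fold higher and 2 past 1.5-fold lower (Anxa1 and Pglyrp1). The median log2 ratio of this list was 0.22 in C1q-low barcodes and -0.20 over all barcodes of the gate.

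Of 30 receptors for chemoattractants and danger signals 20 were measured. Cd14, the lipopolysaccharide co-receptor, was at 2166 and 2038 CPM. Clec4d, a C-type lectin partner of Mincle, was at 910 and 1211 CPM. Fpr1, the formyl peptide receptor, gave 13 and 9 UMIs (129 and 138 CPM) against 4.36 and 3.08 CPM in C1q-positive barcodes, and Fpr2 was at 0.

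Between the diets 4 receptors were past 1.5-fold higher and 0 past 1.5-fold lower, with a median log2 ratio of -0.01. Ptafr, the platelet-activating factor receptor, gave 13 UMIs in 10 of 20 control and 22 UMIs in 11 of 16 sitagliptin barcodes, a CPM ratio of 2.62 (1.26 to 5.67). Fcgr3, an activating IgG receptor, had a ratio of 1.96 (1.18 to 3.28), Il1r2 of 1.79 (1.21 to 2.66) and Ccr1, a receptor for CCL3, of 1.69 (1.02 to 2.80). Over all barcodes of the gate these ratios were 2.81 for Ptafr, 1.15 for Fcgr3, 1.67 for Il1r2 and 0.919 for Ccr1. A single sitagliptin barcode gave 44.1% of that library's Il1r2 UMIs.

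Of 15 adhesion and migration genes, 10 were measured, 0 were past 1.5-fold higher and 2 past 1.5-fold lower (Itga4 and Rac2), with a median log2 ratio of 0.03. Cd44, the hyaluronan receptor, was at 1098 and 1318 CPM against 514 and 570 CPM in C1q-positive barcodes. Itgam, the CD11b chain, was at 673 and 828 CPM. Itga4, an integrin chain, gave 22 and 9 UMIs, and Rac2, a small GTPase of blood cells, gave 15 and 6.

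Chemokine genes split. Of 18, 13 were measured, with 5 past 1.5-fold higher and 5 past 1.5-fold lower and a median log2 ratio of 0.09 (-0.15 over all barcodes of the gate). Cxcl2, a ligand of CXCR2, was found in every C1q-low barcode, with 2 to 125 UMIs in control (median 45) and 7 to 187 in sitagliptin (median 46.5). Its pooled level was 9289 CPM in control and 15157 CPM in sitagliptin, a ratio of 1.63 (1.49 to 1.79), and the barcodes of the libraries overlapped over most of their range. Over all barcodes of the gate the ratio was 1.15, and as a mean of barcode CPM 1.34. C1q-positive barcodes held 3924 and 3984 CPM.

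Ccl3 and Ccl4, inflammatory CC chemokines, were also higher in the sitagliptin C1q-low barcodes. Ccl4 gave 228 UMIs in 15 control barcodes and 279 UMIs in 13 sitagliptin barcodes, 2255 and 4276 CPM, a ratio of 1.90 (1.59 to 2.27). The highest barcode gave 36.0% and 31.2% of these UMIs, and with a Csf3r or Cxcr2 UMI required the ratio was 0.870. Over all barcodes of the gate the Ccl4 ratio was 1.16 (1.01 to 1.34). Ccl3 gave 36 UMIs in 11 and 57 UMIs in 11 barcodes, with a ratio of 2.45 (1.59 to 3.83) and 1.37 over all barcodes of the gate. In the gate's barcodes with more than 5 C1q UMIs the ratios were 0.529 for Ccl4 and 0.574 for Ccl3. Ccl3 and Ccl4 have close paralogs, and reads shared between copies could move their counts. Ccl6 had a ratio of 2.77 in C1q-low barcodes but 0.722 over all barcodes of the gate, and 46.5% of its control UMIs came from 1 barcode.

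Ccl2, Ccl7 and Ccl12, which attract monocytes, had ratios below 1. Ccl2 gave 72 UMIs in 8 control barcodes and 14 UMIs in 5 sitagliptin barcodes, a ratio of 0.301 (0.157 to 0.539), and 1 control barcode gave 66.7% of the control UMIs. Ccl7 gave 46 UMIs in 7 and 5 UMIs in 4 barcodes, a ratio of 0.168 (0.052 to 0.422), and 47.8% of its control UMIs came from 1 barcode. Ccl12 gave 18 and 2 UMIs, 72.2% of the control UMIs from 1 barcode. Over all barcodes of the gate the ratio was 0.470 for Ccl2, 0.663 for Ccl7 and 1.44 for Ccl12. The interferon-induced T cell attractants went in opposite directions: Cxcl10 stood at 198 and 628 CPM (ratio 3.18, 1.82 to 5.72) and Cxcl9 at 326 and 184 CPM (ratio 0.563, 0.265 to 1.12). A single sitagliptin barcode gave 39.0% of the Cxcl10 UMIs there, and over all barcodes of the gate the ratios were 1.98 for Cxcl10 and 1.53 for Cxcl9. In C1q-positive barcodes the ratio was 0.812 for Ccl2, 0.893 for Ccl7 and 1.05 for Cxcl10.

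Dpp4, the target of sitagliptin, gave 1 UMI in control and 0 in sitagliptin C1q-low barcodes. A list of DPP4, related peptidases, chemokines that DPP4 can clip and their receptors had 20 genes, of which 8 were measured. The measured genes were Ccr1 and chemokines already given, with 5 past 1.5-fold higher (Cxcl10, Ccl3, Ccl4, Cxcl2 and Ccr1) and 2 past 1.5-fold lower (Ccl2 and Cxcl9). The median log2 ratio was 0.73 in C1q-low barcodes and 0.21 over all barcodes of the gate, beside -0.05 and -0.10 over all genes measured.

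**Figure D3:**
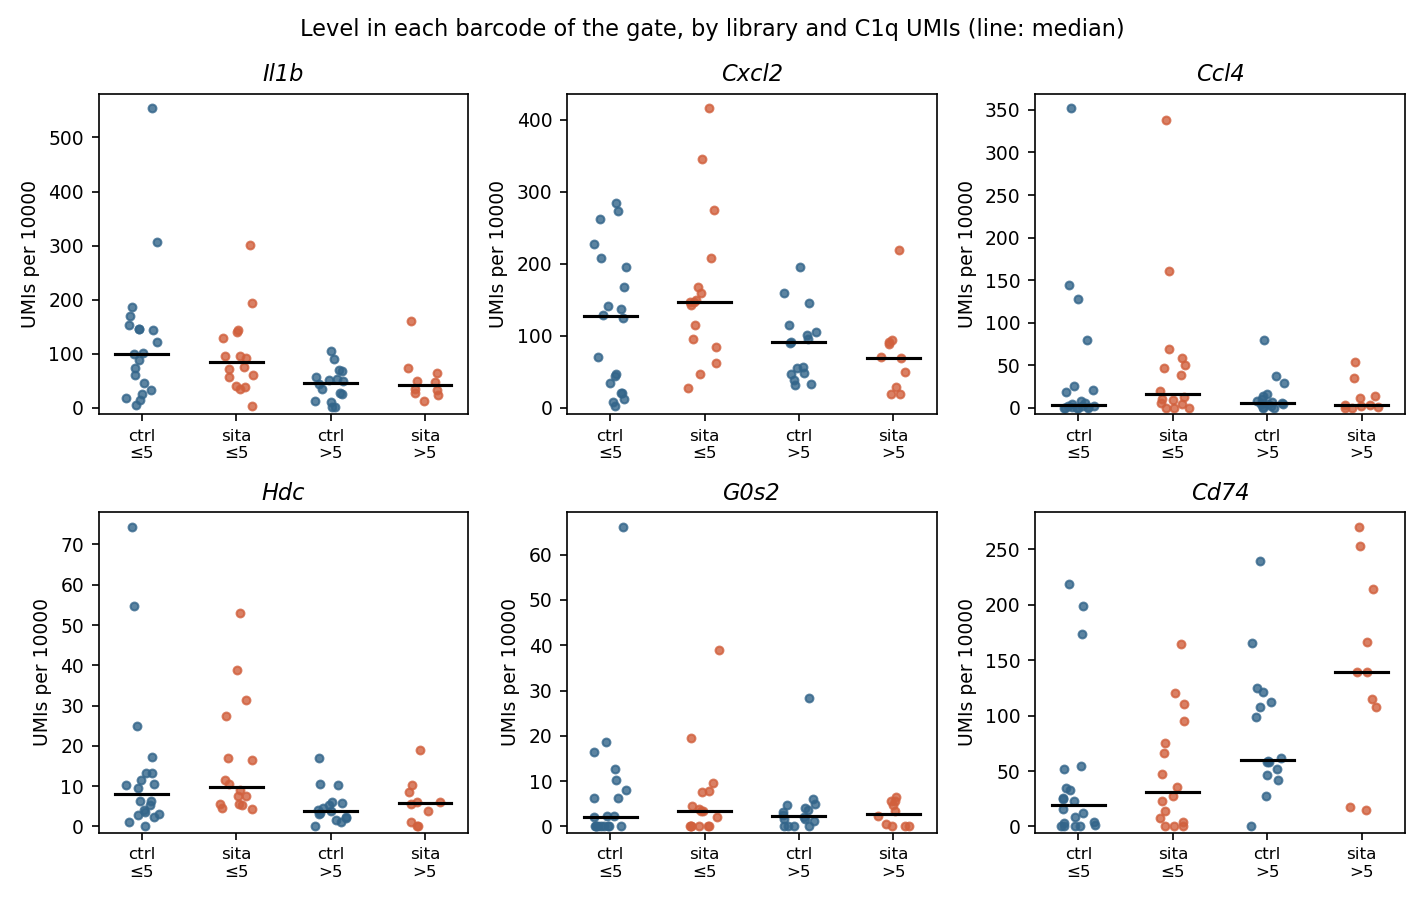
UMIs per 10000 in each barcode of the gate for 6 genes, by library (ctrl, control; sita, sitagliptin) and C1q UMIs (at most 5, or more than 5), with the median as a line. Single barcodes of the libraries overlap in each of the 6 genes, and a few barcodes hold much of the Ccl4 and G0s2.

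Il1b, the inflammatory IL-1β, had the most UMIs of the cytokine genes. It gave 6 to 151 UMIs a barcode in control (median 40.5) and 2 to 108 in sitagliptin (median 34.5). Its pooled level was 10416 and 10176 CPM, a ratio of 0.977 (0.885 to 1.08), against 2284 and 2083 CPM in C1q-positive barcodes. Il1rn, the antagonist of the IL-1 receptor, was at 1187 and 2253 CPM, a ratio of 1.90 (1.48 to 2.44) and 1.73 over all barcodes of the gate. Il1rn was found in 20 of 20 control and 14 of 16 sitagliptin barcodes, with medians of 5 and 9.5 UMIs. Il1a, which encodes IL-1α, was at 168 and 383 CPM.

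Of 19 cytokine genes 10 were measured, with 4 past 1.5-fold higher (Areg, Il1a, Il1rn and Tgfb1) and 3 past 1.5-fold lower (Hbegf, Tnf and Vegfa) and a median log2 ratio of -0.04. Tgfb1 was at 257 and 460 CPM (ratio 1.79, 1.02 to 3.15). Vegfa, the angiogenic factor, was at 594 and 337 CPM (ratio 0.568, 0.332 to 0.940). Hbegf, an EGF receptor ligand, gave 22 UMIs in 7 control barcodes and 1 UMI in 1 sitagliptin barcode. Areg, another such ligand, gave 0 UMIs in control and 43 in 2 sitagliptin barcodes. Areg was at 338 and 306 CPM in C1q-positive barcodes. Il6, Il10, Il12a and Il12b were at 0.

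Of 23 suppressive and tumour-associated neutrophil genes 18 were measured, with 3 past 1.5-fold higher (Olr1, Il1f9 and Arg2) and 3 past 1.5-fold lower (Anxa1, Ifitm1 and Vegfa) and a median log2 ratio of 0.16. Cd274, which encodes PD-L1, was found in 20 of 20 and 15 of 16 barcodes, at 1108 and 1226 CPM against 337 and 293 CPM in C1q-positive barcodes. Acod1 was at 1385 and 2008 CPM against 107 and 98.1 CPM. Arg1, arginase, was at 1316 and 1747 CPM, below its 2305 and 2375 CPM in C1q-positive barcodes, and its ratio was 1.33 in C1q-low barcodes and 0.801 over all barcodes of the gate. Olr1, the LOX-1 receptor, gave 19 UMIs in 9 control and 28 UMIs in 7 sitagliptin barcodes, a ratio of 2.28 (1.23 to 4.33), and 57.9% of the control UMIs came from 1 barcode. Siglecf, Tnfrsf10b and Slc27a2 were at 0 UMIs.

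The NADPH oxidase, which makes superoxide, had 7 of 8 genes measured, 1 past 1.5-fold higher (Ncf1) and 3 past 1.5-fold lower (Ncf4, Rac1 and Rac2), with a median log2 ratio of -0.25. The membrane subunits Cyba and Cybb were at 1563 and 1318 CPM and at 544 and 475 CPM. Rac1, a GTPase used by the complex and by migrating cells, was at 524 and 291 CPM (ratio 0.555, 0.310 to 0.954). Of 10 genes of lipid mediator synthesis 4 were measured, with Pla2g4a, which releases arachidonic acid, past 1.5-fold lower (16 and 4 UMIs). Ptgs2, the inducible cyclooxygenase, was at 1049 and 1456 CPM against 410 and 360 CPM in C1q-positive barcodes. Alox5ap, the partner of 5-lipoxygenase, was at 564 and 536 CPM, and Alox5 gave 0 and 2 UMIs.

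Of 19 survival genes 11 were measured. Mcl1, the BCL2-family protein that neutrophils depend on, was at 861 and 843 CPM against 472 and 411 CPM in C1q-positive barcodes. The Bcl2a1 copies, which share reads, were at 663 and 874 CPM for Bcl2a1b and 287 and 322 CPM for Bcl2a1d. Between the diets 3 were past 1.5-fold higher (Gadd45b, Bax and Bcl2l11) and 0 past 1.5-fold lower, with a median log2 ratio of 0.21 and of -0.10 over all barcodes of the gate. Bax and Bcl2l11 were then at ratios of 0.821 and 0.877.

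Of 21 transcription factor genes 15 were measured, with 3 past 1.5-fold higher and 4 past 1.5-fold lower and a median log2 ratio of -0.24. Nfkbia, the inhibitor of NF-κB, had the most UMIs and was at 2147 and 1287 CPM, a ratio of 0.600 (0.461 to 0.775). It was found in 19 of 20 and 14 of 16 barcodes, with medians of 8.5 and 5 UMIs. Nfkbiz, an inducible regulator of NF-κB, went the other way, with 28 UMIs in 11 control and 41 UMIs in 13 sitagliptin barcodes, a ratio of 2.27 (1.37 to 3.81). Spi1, the myeloid factor PU.1, had a ratio of 1.82, with an interval that began at 1 and ended at 3.32, and Fosl2 of 1.55. Bhlhe40, a stress-induced repressor, was at 425 and 184 CPM (ratio 0.432, 0.208 to 0.835), with Stat3 at 0.496 and Klf2 at 0.516. Cebpa and Gfi1, which act in granulocyte precursors, were at 0, and Cebpe gave 0 and 1 UMI.

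Of 25 interferon-induced genes in the files 11 were measured. Isg15, a ubiquitin-like protein, was at 1266 and 858 CPM against 339 and 321 CPM in C1q-positive barcodes. Between the diets Slfn5 was past 1.5-fold higher, Ifitm3 and Zbp1 were past 1.5-fold lower, and the median log2 ratio was -0.01. Ifitm3, a membrane protein that blocks virus entry, was at 1612 and 904 CPM (ratio 0.561, 0.409 to 0.760), in 19 of 20 and 13 of 16 barcodes.

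Of 13 MHC class I genes 8 were measured, with 0 past 1.5-fold higher, 2 past 1.5-fold lower (Tap1 and Psmb8) and a median log2 ratio of -0.47 (-0.31 over all barcodes of the gate). H2-D1, a class I heavy chain, was at 1939 and 1379 CPM and B2m, the light chain, at 3156 and 2851 CPM. Psmb8, an immunoproteasome subunit, was at 505 and 261 CPM (ratio 0.516, 0.280 to 0.909). Of 8 MHC class II genes 7 were measured and 0 were past 1.5-fold in either direction, with a median log2 ratio of 0.07. Over all barcodes of the gate that median was 0.79, with Cd74 at a ratio of 1.67 and H2-Eb1 at 2.24. In the barcodes with more than 5 C1q UMIs Cd74 was at 8040 and 16079 CPM, and in C1q-low barcodes at 6400 and 6697 CPM. Among the former, the highest barcode gave 198 of 1031 control and 462 of 1504 sitagliptin Cd74 UMIs. Another sitagliptin barcode gave 358. The medians were 51.5 and 87.5 Cd74 UMIs a barcode.

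Of 25 glycolysis and hypoxia genes 19 were measured, 0 past 1.5-fold higher and 1 past 1.5-fold lower, with a median log2 ratio of -0.02. That gene was Ero1l, an oxidase of the endoplasmic reticulum, with 85 UMIs in 16 control and 22 UMIs in 11 sitagliptin barcodes, a ratio of 0.401 (0.239 to 0.647) and 0.489 over all barcodes of the gate. Eno1 and Gapdh, glycolytic enzymes, were at 2186 and 1716 CPM and at 1415 and 1395 CPM. Of 21 immediate early and stress genes 15 were measured, with 3 past 1.5-fold higher (Ier3, Fosb and Hspa1a) and 2 past 1.5-fold lower (Hspa8 and Jund). Hspa8, a constitutive chaperone, was at 2809 and 1134 CPM (ratio 0.404, 0.308 to 0.523), and 38.7% of its control UMIs came from 1 barcode. Of the Hspa1a UMIs, 12 of 13 in control and 17 of 20 in sitagliptin came from 1 barcode. Of 20 cell cycle genes 2 were measured, H2afz and Hmgb2, both below their level in C1q-positive barcodes, and Mki67 gave 5 and 2 UMIs.

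**Figure D4:**
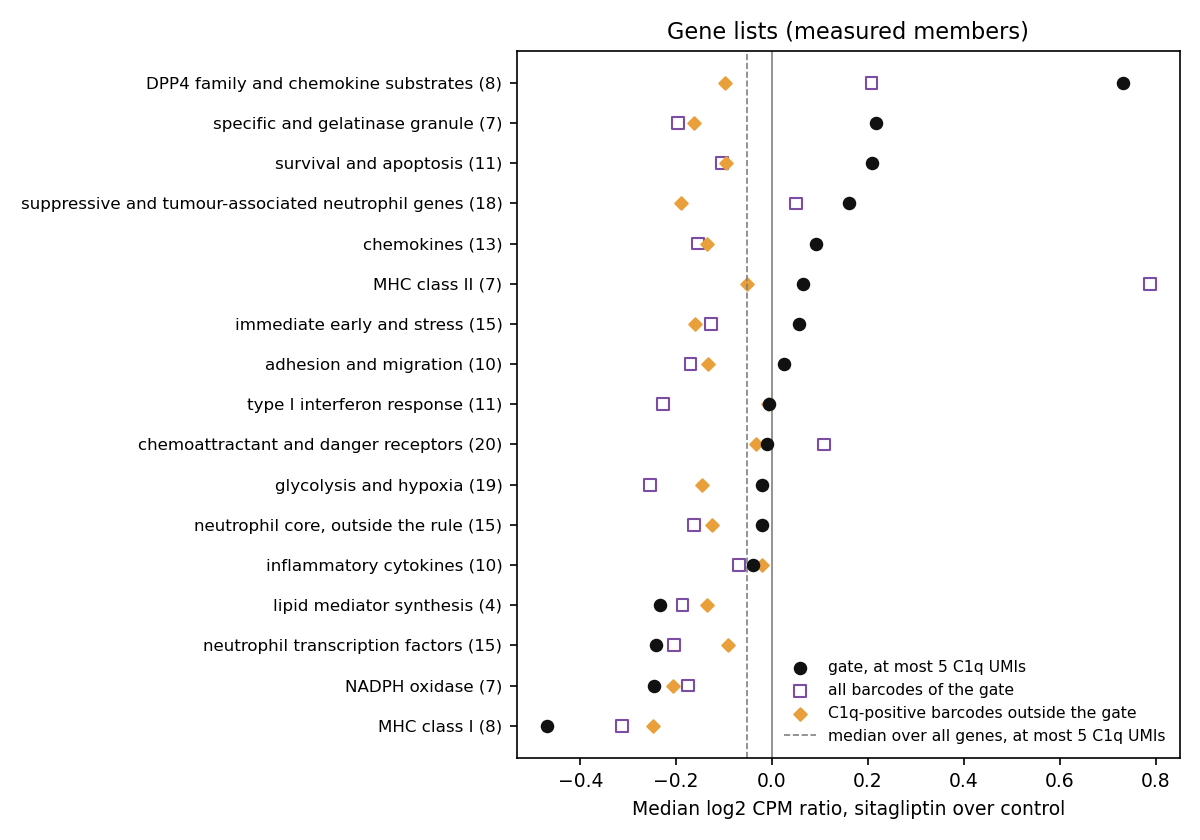
Median log2 CPM ratio, sitagliptin over control, of 17 gene lists with at least 3 measured genes (number in brackets), in C1q-low barcodes of the gate (circles), all barcodes of the gate (open squares) and C1q-positive barcodes outside the gate (diamonds). The dashed line is the median of all genes in C1q-low barcodes (-0.05), and the MHC class II list moves from 0.07 in C1q-low barcodes to 0.79 over all barcodes of the gate.

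The genes with the widest gaps between the libraries were taken by a fixed rule, 12 at each end. A gene needed 50 UMIs or more in the libraries' sum and 50 CPM or more in the higher library. Mitochondrial, ribosomal protein, haemoglobin, antigen receptor, unnamed-model, Xist, Tsix and Y-linked genes were left out, while rule genes were kept. They were chosen for their ratios, which are therefore a description. At the high end were Cxcl10, Lrrfip2, Il1f9, Ccl6, Cmss1, Apoe, Ccl3, Nfkbiz, Plbd1, Txn1, Cstdc4 and Nfe2l2, with ratios from 2.08 (Nfe2l2) to 3.18 (Cxcl10). Il1f9 gave 17 UMIs in 9 of 20 control barcodes and 33 UMIs in 13 of 16 sitagliptin barcodes, with medians of 0 and 2. Its ratio was 3.01 (1.63 to 5.76) and 2.35 over all barcodes of the gate. Nfe2l2, the NRF2 regulator of antioxidant genes, gave 29 UMIs in 12 and 39 UMIs in 15 barcodes. Cmss1 had a ratio of 2.61, and of 1.35 over all barcodes outside the gate. It gave 47.1% and 37.1% of its UMIs in 1 barcode of each library. A single control barcode gave 13 of the 26 control UMIs of Apoe. A single sitagliptin barcode gave 15 of the 42 Apoe UMIs there.

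At the low end were Retnlg, Ccl7, Plk2, Ifi27l2a, Hsp90ab1, Ccl2, Ezr, Psme2, Anxa1, Ifitm1, Cd63 and Ero1l. Retnlg is a rule gene that helped to choose the barcodes, and 63.2% of its control UMIs came from 1 barcode. Ezr, which links actin to the membrane, gave 105 UMIs in 19 of 20 control barcodes (0 to 22, median 3) and 21 UMIs in 10 of 16 sitagliptin barcodes (0 to 6, median 1). Its ratio was 0.310 (0.184 to 0.498), 0.375 over all barcodes of the gate and 0.766 in C1q-positive barcodes. Psme2, a proteasome activator subunit, gave 60 UMIs in 16 and 14 UMIs in 9 barcodes, a ratio of 0.361. Hsp90ab1, a chaperone, was at 2849 and 782 CPM, with 41.7% of the control UMIs in 1 barcode. Its ratio was 0.274, and 0.703 over all barcodes outside the gate. A single control barcode gave 25 of the 50 control UMIs of Plk2 and 48.9% of those of Ifitm1. Anxa1, Ifitm1 and Ccl6 lay on the other side of 1 over all barcodes of the gate, with ratios of 1.20, 1.30 and 0.722.

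**Figure D5:**
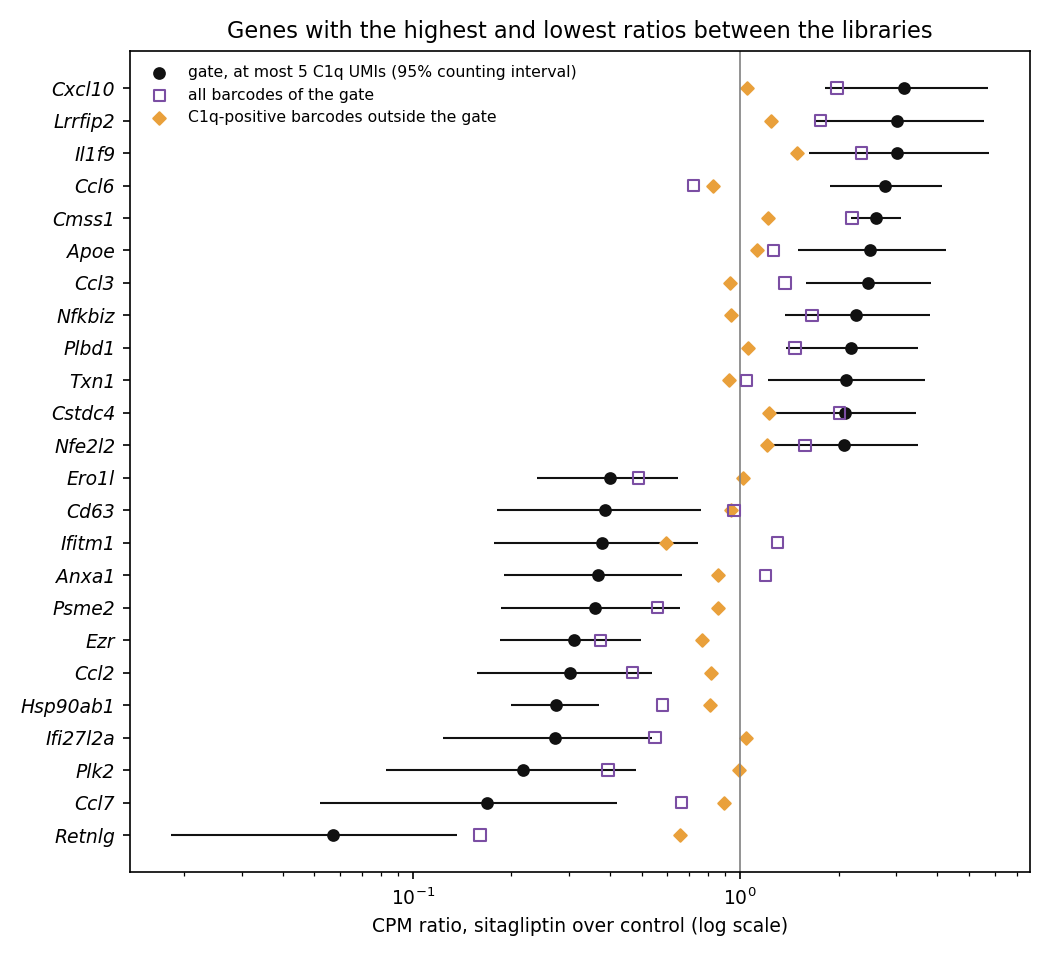
CPM ratio, sitagliptin over control (log scale), of the 12 genes with the highest and the 12 with the lowest ratios in C1q-low barcodes (circles, with 95% counting intervals), beside all barcodes of the gate (open squares) and C1q-positive barcodes outside the gate (diamonds). Gene classes left out of this ranking are given in the text. The ratios run from 0.057 for Retnlg, a rule gene, to 3.18 for Cxcl10, and each of the 24 open squares lies nearer to 1 than its circle.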

How the data were processed

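The authors deposited raw UMI counts of 32285 gene rows by cell barcode for each of 2 libraries. For aligner, genome build, cell calling and doublet removal nothing is given in the sources used here. No barcode had fewer than 2001 UMIs. Groups came from the treatment label of each sample.

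The matrices were loaded in Python 3.11.15 (scanpy 1.11.5, anndata 0.12.19, numpy 2.4.6, scipy 1.17.1, pandas 2.3.3), and rows sharing a symbol were summed, leaving 32245 symbols. The gate was applied to these raw counts. The 2 libraries held 64139749 and 76788699 UMIs (medians of 5074 and 5158.5 a barcode). The C1q-low barcodes of the gate held 101090 UMIs in control (2332 to 10795 a barcode, median 4578) and 65251 in sitagliptin (2071 to 7644, median 3648.5), so 1 UMI stood for about 9.89 and 15.3 CPM.

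UMIs were summed over barcodes and scaled to CPM, with exact Poisson intervals, and the CPM ratio had an exact conditional binomial interval. Shares had Clopper-Pearson intervals and their ratio a Katz interval. UMIs of 1 library are not replicates, so intervals cover counting error only. The ratio code was tested on simulated data. Scrublet in scanpy (expected rate 0.06, seed 0) made 0 automatic calls, so no barcode was removed as a doublet. The 6% of barcodes with the highest scores included 5 control and 0 sitagliptin barcodes of the gate. Several barcodes carry genes of another cell type, and how many hold more than 1 cell was not tested.

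The gate, the gene lists and the comparison sets were chosen with earlier results of these data known. Named genes were the 12 highest and 12 lowest ratios (at least 50 UMIs over both libraries and 50 CPM in the higher one), the 15 genes furthest above barcodes outside the gate (50 UMIs or more, rule genes left out), and, from 19 function lists, the genes with most UMIs or past 1.5-fold. There were also 11 lists of cell type markers. Genes with close copies are uncertain, because the counting of shared reads is not given. Alternatives changed the limits of the gate, the C1q limit, the doublet treatment, the depth, the scaling and single barcodes. The split by Csf3r or Cxcr2 UMIs, the split by Cd74, the removal of the barcode with the most S100 UMIs and the gate with T cell UMIs allowed were added after seeing the data. Promoters came from RefSeq (GRCm38.p6).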

Additional observations from a re-analysis of the deposited data

How the results depend on the processing

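The share of barcodes in the gate kept a ratio below 1 under every alternative that was run. All intervals included 1 except that of the whole gate over barcodes with a Ptprc UMI (0.350 to 0.959). The highest ratio was 0.979 (0.416 to 2.30), from 10 control and 11 sitagliptin C1q-low barcodes with a Csf3r or Cxcr2 UMI. With an S100 sum of at least 100 UMIs, 5 control barcodes and 1 sitagliptin barcode remained, a ratio of 0.178 (0.0208 to 1.52). With at most 5 C1q UMIs as well there were 4 and 1, a ratio of 0.223 (0.0249 to 1.99). The count of genes past 1.5-fold was 472 in C1q-low barcodes. It was 890 over all barcodes of the gate (3016 genes measured), 58 with an S100 sum of at least 100 (103 genes), 192 after thinning to 2000 UMIs (571 genes) and 242 with a Csf3r or Cxcr2 UMI required (580 genes), so fewer or more genes could be counted. For 123 named genes, 1067 of 1281 recomputed ratios stayed within the interval of the main ratio and 192 fell outside it. A further 22 crossed 1 where the main interval excluded 1. Crossings by genes whose main interval included 1 are counted among the 1067 or the 192. Slpi, for example, went from 1.36 to 0.873 over all barcodes of the gate. Among the 22, the ratios over all barcodes of the gate were 1.20 for Anxa1, 0.801 for Arg1, 0.722 for Ccl6, 0.919 for Ccr1, 0.960 for Cxcl3, 1.30 for Ifitm1 and 0.979 for Lyz2. With an S100 sum of at least 100 they were 0.386 for Ier3, 0.524 for Il1r2 and 1.15 for S100a9, and with a second sum of at least 4 UMIs 0.955 for Cmss1 and 0.573 for Ier3. Arg1 was at 0.905 as a mean of barcode CPM and Lyz2 at 0.909 after thinning. With at most 20 Cd74 UMIs as well, ratios were 0.0646 for Arg1, 0.488 for Ier3, 1.55 for Isg15 and 0.411 for Lyz2. With a Csf3r or Cxcr2 UMI required they were 0.870 for Ccl4, 0.552 for Ier3, 0.830 for Il1r2 and 0.681 for Spi1. The cause of these moves was not tested. Of 193 recomputed list medians 11 moved. No paired analysis was possible because there was 1 library per diet, and no library could be left out. Depth limits these values, since the C1q-low set had 36 barcodes, with 1 UMI worth about 9.89 CPM in control and 15.3 CPM in sitagliptin.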

Other observations

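Some barcodes held genes of the second sum with little calprotectin. With an S100 sum under 10, at least 4 UMIs of Csf3r, Cxcr2, Retnlg and Hdc and no T cell UMI there were 26 control and 24 sitagliptin barcodes. Their median S100 sum was 0 UMIs in both libraries and their median Hdc count was 5 UMIs in both. Il1b was at 5342 and 5736 CPM and Il1r2 at 335 and 236 CPM in these barcodes, against 10416 and 10176 CPM and 505 and 904 CPM in the C1q-low barcodes of the gate. Barcodes with an S100 sum of at least 10, no T cell UMI and a second sum of 0 were 9 in control and 4 in sitagliptin, with Il1b at 2427 and 3935 CPM.

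The S100 share of all UMIs in the gate was 0.624% in control and 1.06% in sitagliptin barcodes with no C1q UMI, and 3.10% and 1.31% in those with 1 to 5. The control value at 1 to 5 C1q UMIs includes the barcode with 530 S100 UMIs.

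Areg gave 43 UMIs in the sitagliptin C1q-low barcodes, 22 in 1 barcode with a Csf3r or Cxcr2 UMI and 21 in 1 without. In the gate's barcodes with more than 5 C1q UMIs Areg was at 85.8 CPM in control and 96.2 CPM in sitagliptin.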
